A study of Homo sapiens with 6 samples.

Results

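The 8 genes described here, HMGCS1, SQLE, INSIG1, IDI1, FDFT1, LSS, DHCR7 and SREBF2, encode enzymes and regulators of cholesterol synthesis. They are given by name, and all 8 were found among the 17687 genes listed for KHM-5M cells. KHM-5M is an established cell line of anaplastic thyroid cancer. The cells received PBS (control), sodium selenite (SS), or SS together with N-acetylcysteine (SS+NAC), an antioxidant that supplies cysteine. No group received NAC alone, so effects of NAC itself and of NAC on the response to SS cannot be told apart. All groups were grown in RPMI medium with fetal bovine serum. The study used 2 biological replicates per group, so p-values measure the spread between these libraries. The selenite dose and the exposure time of the sequenced cells are not given in the sources used here, and a number without a unit in the sample titles was not used as a dose. RNA-seq reads were summed to 17645545 and 22016655 expected counts in the control libraries, 23493415 and 23810056 in SS, and 23682740 and 22617180 in SS+NAC. All 8 genes passed the filter on low counts that left 14005 genes for testing.

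Animal cells make cholesterol from acetyl-CoA through mevalonate, isoprenoid units, squalene and lanosterol. When membranes of the endoplasmic reticulum lack sterol, SCAP carries SREBP proteins to the Golgi, where proteases release a fragment that enters the nucleus and activates the genes of the pathway. When sterol is plentiful, INSIG proteins hold SCAP back. Most genes of the pathway therefore tend to rise or fall as a block when SREBP activity changes, and dividing tumour cells depend on the pathway for new membranes.

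The identity of the cells was checked with marker genes. PAX8, a transcription factor of thyroid follicular cells, had 4942 to 6379 counts per library, whereas NKX2-1, another thyroid factor, had at most 5. TG, the precursor of thyroid hormone, had 20.1 to 32.0 counts. The most abundant epithelial marker was the keratin KRT8 and the most abundant mesenchymal marker was VIM. Neither list was expressed throughout. KRT8 had 18430 to 35540 counts per library and KRT18 12090 to 22420. EPCAM had at most 116 counts, KRT19 at most 41.0 and CDH1 at most 16.3. The mesenchymal markers COL1A2 and COL3A1 had at most 5 counts in every library. CD3E and CDH5, which define T cells and endothelium, had at most 5 counts in every library. No immune marker exceeded 45.0 counts and no endothelial marker 26.7. The summed epithelial markers stood at 1714 and 1793 CPM in control, 2183 and 2653 in SS, and 1697 and 1338 in SS+NAC. Within the epithelial list 2 of 5 genes were called higher in SS than in control and 2 lower in SS+NAC than in SS, beside 40.0% and 42.7% of all genes called in these comparisons. The summed mesenchymal markers stood at 10840 and 11290 CPM in control, 12120 and 12180 in SS, and 12360 and 12820 in SS+NAC. The sum hides calls in both directions, since 1 of 4 tested mesenchymal markers was higher in SS than in control, and in SS+NAC against SS 2 were higher and 1 lower. With the length offset described below, 0 of 5 epithelial and 0 of 4 mesenchymal markers were called in SS against control (all genes 9.23%). In SS+NAC against SS it called 2 epithelial markers and 1 mesenchymal marker, each lower (all genes 14.5%). In SS+NAC against control it called 1 mesenchymal marker, higher (all genes 2.01%). The part of these markers in the results below was not tested.

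Sequences before the transcription start show what the promoters of these genes share. RefSeq promoter windows on GRCh38.p14 were at hand for 6 of the 8 genes, with 10 windows among them, and the 250 bases before each start were searched on both strands. The SREBP element TCACNCCAC was found in 1 of the 10 windows, that of SREBF2, and in 0.88% of 35116 windows of all genes. The NF-Y box CCAAT, bound by a factor that acts together with SREBP, was found in 7 of the 10 windows and in 32.0% of all windows. The GC box GGGCGG was found in 9 of 10 and in 42.6% of all. The E-box CACGTG was found in 1, that of INSIG1, and in 6.34% of all. A match describes the letters of a window and does not show binding. The stretches below each hold an NF-Y box, which these genes have in common, and the capitals mark all matches of these motifs. In all 3 the box reads ATTGG because it lies on the opposite strand, and in SREBF2 it stands downstream of the SREBP element. The matches do not overlap.
SREBF2, chr22:41832969-41833033, plus strand: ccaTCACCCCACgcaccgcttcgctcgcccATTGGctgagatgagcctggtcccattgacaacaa
HMGCS1, chr5:43313533-43313597, minus strand: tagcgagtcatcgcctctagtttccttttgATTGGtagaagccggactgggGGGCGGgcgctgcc
INSIG1, chr7:155297678-155297742, plus strand: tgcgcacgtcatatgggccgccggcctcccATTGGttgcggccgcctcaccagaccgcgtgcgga

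The levels of the 8 genes were compared with each other in TPM, a unit which takes gene length into account. In control FDFT1 was the most abundant at 81.0 ± 5.81 TPM (mean ± SD, n = 2, here and below), followed by DHCR7 at 64.5 ± 4.64 TPM. IDI1 at 42.7 ± 1.93 and SQLE at 41.7 ± 0.0636 TPM were neighbours that did not differ beyond their spread. LSS followed at 34.4 ± 1.23 TPM. INSIG1 at 26.2 ± 0.636 and SREBF2 at 24.5 ± 0.559 TPM differed by more than their SDs. HMGCS1, which acts first of these enzymes, was the lowest at 10.0 ± 0.474 TPM. FDFT1, DHCR7 and IDI1 also stood highest in SS, at 91.1 ± 2.53, 63.5 ± 3.22 and 40.4 ± 4.91 TPM, and HMGCS1 lowest at 7.20 ± 0.743 TPM. In SS the SQLE level of 28.5 ± 2.95 and the INSIG1 level of 28.2 ± 7.14 TPM could not be separated.

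**Figure D1:**
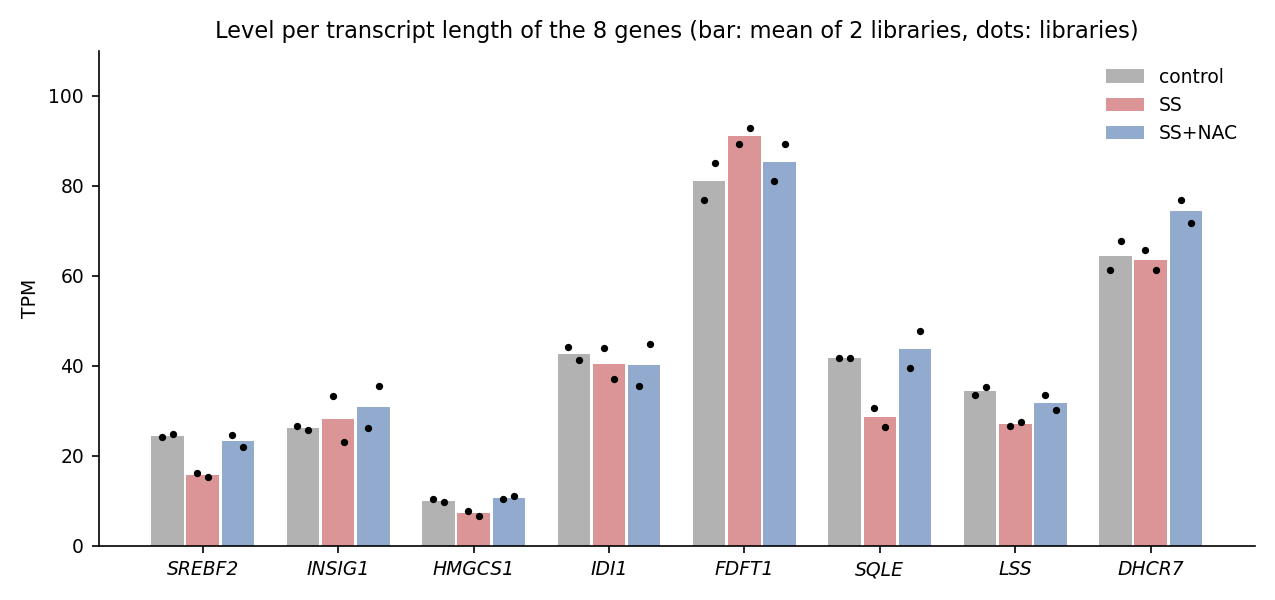
TPM (y axis) of the 8 genes (x axis) in control, SS and SS+NAC; bars are means of 2 libraries and dots the libraries. FDFT1 and DHCR7 stand highest in each group and HMGCS1 lowest, at 10.0 TPM in control, 7.20 in SS and 10.7 in SS+NAC. Levels of a gene between groups are compared in CPM below.

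Treatment with SS was compared with control to ask how selenite alters transcript levels, and here the 8 genes did not move as a block. FDFT1 and DHCR7 were higher in SS, SQLE and SREBF2 were lower, and the other 4 genes did not pass the test. The share of called genes was 4 of 8, against 40.0% of all 14005 genes (5609), so it is close to the background. In direction, 2 of 8 were called higher against 18.6% of all genes and 2 lower against 21.4%. The median log2 fold change of the 8 genes was -0.02 and that of all genes 0.00. The calls come from edgeR's quasi-likelihood test on the counts, with p adjusted by Benjamini-Hochberg over all genes and a limit of 0.05. Values by library are given below as CPM, counts scaled to library size with TMM factors, which serve to compare a gene between groups. The deposited TPM carries no such factor, and it stood lower in SS for genes whose CPM was alike. PAX8 had means of 269 CPM in control and 276 in SS, but 130 and 110 TPM. SCARB1, of lipoprotein uptake, had 157 and 155 CPM, but 112 and 91.5 TPM. In SS+NAC they stood at 129 and 114 TPM. A TPM difference between SS and another group thus holds this shift too. In these bulk libraries fewer cells of a kind and less RNA per cell cannot be told apart.

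**Figure D2:**
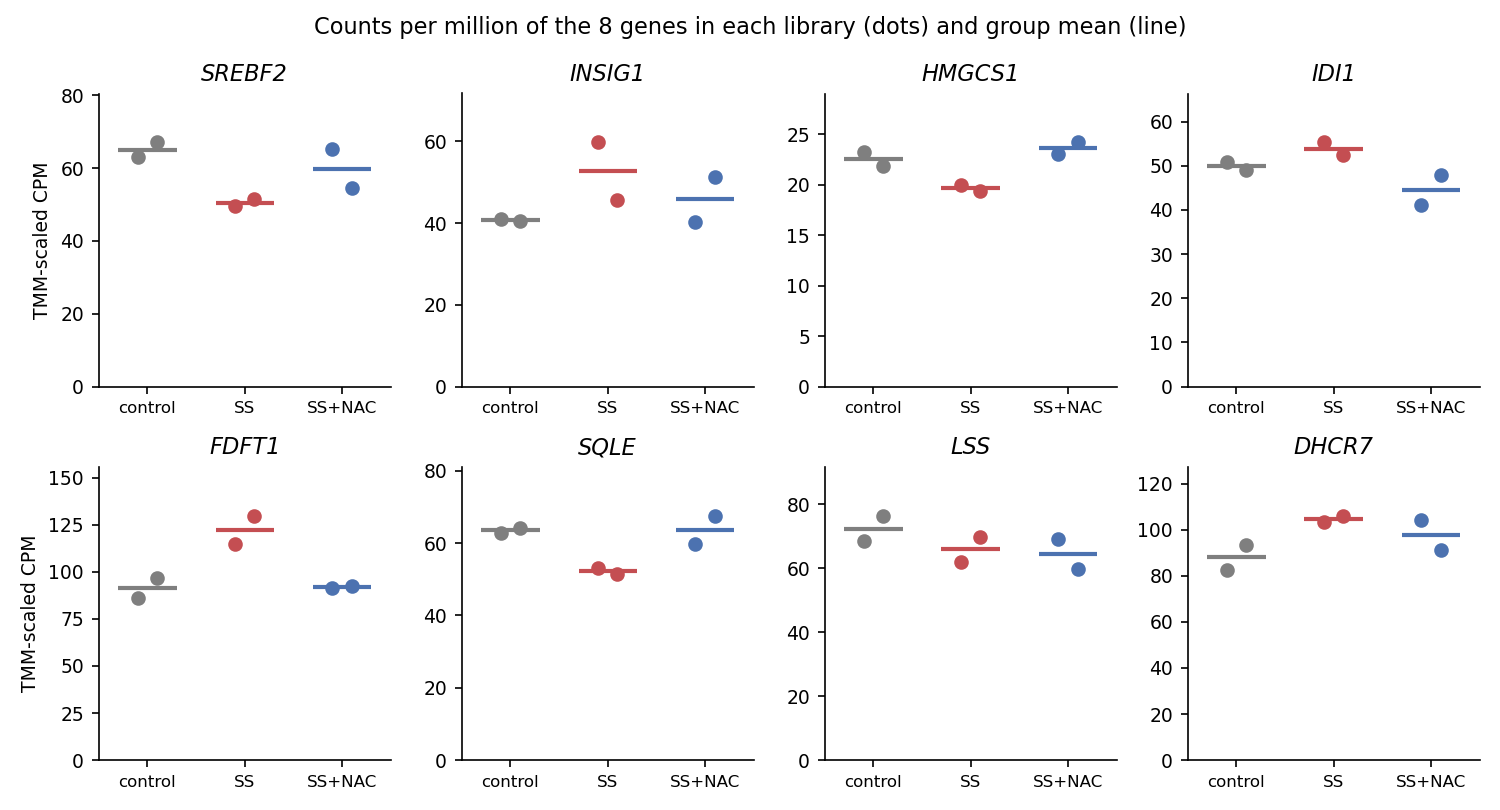
TMM-scaled CPM (y axis, from 0) of each of the 8 genes in the 2 libraries of control, SS and SS+NAC (dots), with the group mean as a line. FDFT1 stands at 115 and 130 CPM in SS against 85.8 to 97.0 in the other 4 libraries, while SQLE and SREBF2 are lowest in the SS libraries.

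SREBF2 encodes SREBP2, the transcription factor that drives most genes of cholesterol synthesis (NCBI gene 6721, chromosome 22 of GRCh38 from 41833079 to 41907308, plus strand). It stood at 63.0 and 67.1 CPM in control, 49.6 and 51.4 in SS, and 65.2 and 54.5 in SS+NAC. Both SS libraries lay below both control libraries, and also below those of SS+NAC. In relative terms the gap was wider in TPM, which holds the shift in SS given above. SREBF2 had 24.08 and 24.87 TPM in control, 16.15 and 15.33 in SS, and 24.53 and 21.97 in SS+NAC. SREBF2 fell by 0.36 ± 0.09 (log2 fold change ± SE) in SS against control, with an adjusted p of 0.0106. The call was lost without control replicate 2 (adjusted p = 0.105) and without SS replicate 1 (0.0604). It was also lost when a trend with gene length was removed, as described further below, where the change came to -0.06 ± 0.10 (adjusted p = 0.777).

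INSIG1 encodes an anchor of SCAP in the endoplasmic reticulum and is itself an SREBP target (NCBI gene 3638, chromosome 7 from 155297776 to 155310235, plus strand). It had 41.0 and 40.6 CPM in control, 59.8 and 45.7 in SS, and 40.3 and 51.4 in SS+NAC. Both SS libraries exceeded control, but they lay further apart from each other than the control mean lay from the lower SS library. In TPM, with its shift in SS, the groups overlapped, at 26.7 and 25.8 TPM in control and 33.2 and 23.1 in SS. The difference of 0.37 ± 0.14 missed the limit (adjusted p = 0.0509). It did not pass without the filter on low counts (adjusted p = 0.0687), with the length trend removed (0.0949), or without control replicate 1 (0.138) or 2 (0.108). It passed with DESeq2 (adjusted p = 0.0264), with DESeq2 size factors (0.0432), with a minimum of 10 counts (0.0323) and in a fit of the compared libraries alone (0.00863). Without SS replicate 1 it was 0.16 (adjusted p = 0.408) and without SS replicate 2 it was 0.55 (0.0198), so the size of this difference hung on a single library. Without either SS+NAC library it also passed the limit (adjusted p = 0.00471 and 0.00511).

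HMGCS1 encodes HMG-CoA synthase of the cytosol, which makes the precursor of mevalonate (NCBI gene 3157, chromosome 5 from 43289395 to 43313512, minus strand). It had 22.5 ± 0.980 CPM in control, 19.7 ± 0.419 in SS, and 23.7 ± 0.784 in SS+NAC. The SS libraries were the lowest of the 6, and the difference from control of -0.19 ± 0.09 did not pass the test (adjusted p = 0.110). IDI1 encodes an isomerase that sets the balance of the isoprenoid building blocks (NCBI gene 3422, chromosome 10 from 1039152 to 1049170, minus strand). Its difference of 0.11 ± 0.09 did not pass either (adjusted p = 0.361), with 51.0 and 49.1 CPM in control and 55.3 and 52.5 in SS. In TPM, with its shift in SS, the mean of IDI1 was lower in SS, at 40.4 ± 4.91 against 42.7 ± 1.93 TPM, with overlapping libraries. Without SS replicate 1 the log2 fold change of IDI1 was 0.069. With the length trend removed these differences changed sign, to 0.04 for HMGCS1 and -0.01 for IDI1, and neither passed the test.

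FDFT1 encodes squalene synthase, which commits isoprenoids to sterols (NCBI gene 2222, chromosome 8 from 11795573 to 11839309, plus strand). It had 85.8 and 97.0 CPM in control, 115 and 130 in SS, and 91.2 and 92.6 in SS+NAC. On this scale the SS libraries stood above the other 4 with no overlap. In TPM, with its shift in SS, they stood above control, at 89.3 and 92.8 against 76.9 and 85.1 TPM. They overlapped those of SS+NAC, at 81.1 and 89.3 TPM. FDFT1 rose by 0.42 ± 0.09 in SS against control (1.34-fold, adjusted p = 0.00399), which was the smallest adjusted p among the 8 genes. The call was lost without control replicate 1 (adjusted p = 0.0660) and with the length trend removed (0.28 ± 0.08, adjusted p = 0.0571).

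SQLE encodes squalene epoxidase, the first oxygen-dependent and a rate-limiting step (NCBI gene 6713, chromosome 8 from 124998497 to 125022283, plus strand). It had 62.9 and 64.3 CPM in control, 53.2 and 51.4 in SS, and 59.7 and 67.5 in SS+NAC. The SS libraries were the lowest of the 6. In TPM, with its shift in SS, the relative gap was wider, with 41.61 and 41.7 TPM in control and 30.61 and 26.44 in SS. SQLE fell by 0.28 ± 0.08 in SS against control (adjusted p = 0.0189). Its size hardly moved with the length trend removed, at -0.26 ± 0.08, though the adjusted p was then 0.0693. The call was also lost without control replicate 1 or 2 (adjusted p = 0.0850 and 0.162) and without SS replicate 1 or 2 (0.0532 and 0.111).

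LSS encodes lanosterol synthase, which closes the sterol rings (NCBI gene 4047, chromosome 21 from 46188141 to 46228824, minus strand). It had 68.5 and 76.4 CPM in control and 62.0 and 69.8 in SS, so the groups overlapped on this scale. In TPM, with its shift in SS, the libraries of LSS did not overlap, at 34.4 ± 1.23 TPM in control and 27.0 ± 0.608 in SS. The log2 fold change of -0.14 ± 0.10 did not pass the test (adjusted p = 0.286), and it was 0.05 with the length trend removed. It was -0.22 and -0.028 without control replicate 1 or 2, and -0.056 and -0.23 without SS replicate 1 or 2. DHCR7 encodes the reductase of the final step to cholesterol in the Kandutsch-Russell route (NCBI gene 1717, chromosome 11 from 71428193 to 71452868, minus strand). It had 82.7 and 93.4 CPM in control, 104 and 106 in SS, and 104 and 91.1 in SS+NAC. DHCR7 rose by 0.25 ± 0.09 in SS against control, just inside the limit (adjusted p = 0.0467). In TPM, with its shift in SS, the libraries of DHCR7 overlapped, at 61.2 and 67.7 TPM in control and 65.8 and 61.3 in SS. The call was lost without control replicate 1 (0.16, adjusted p = 0.359), SS replicate 1 (0.111) or SS replicate 2 (0.184), without the filter on low counts (0.0741), and with the length trend removed (0.21 ± 0.09, adjusted p = 0.157).

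Between SS and control the libraries of 7 of the 8 genes did not overlap, against 73.3% of all genes. All that carried the higher values in SS (FDFT1, DHCR7, INSIG1, IDI1) had an effective length of at most 3063 bases, and those with lower values (SQLE, HMGCS1, SREBF2) ranged from 3003 to 5249 bases. Effective length is the number of positions at which a read of a transcript can start. A relation of this kind ran through all genes in SS against control, in which Spearman's rho between log2 fold change and effective length was -0.68 across 14004 genes. Among the 8 genes it was -0.714, and among the 22 tested enzymes of the pathway -0.782. Genes are not independent replicates, so these are descriptions without a p-value. In SS+NAC against control rho across all genes was -0.037, and in SS+NAC against SS, which shares the SS libraries with the first comparison, it was 0.637.

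**Figure D3:**
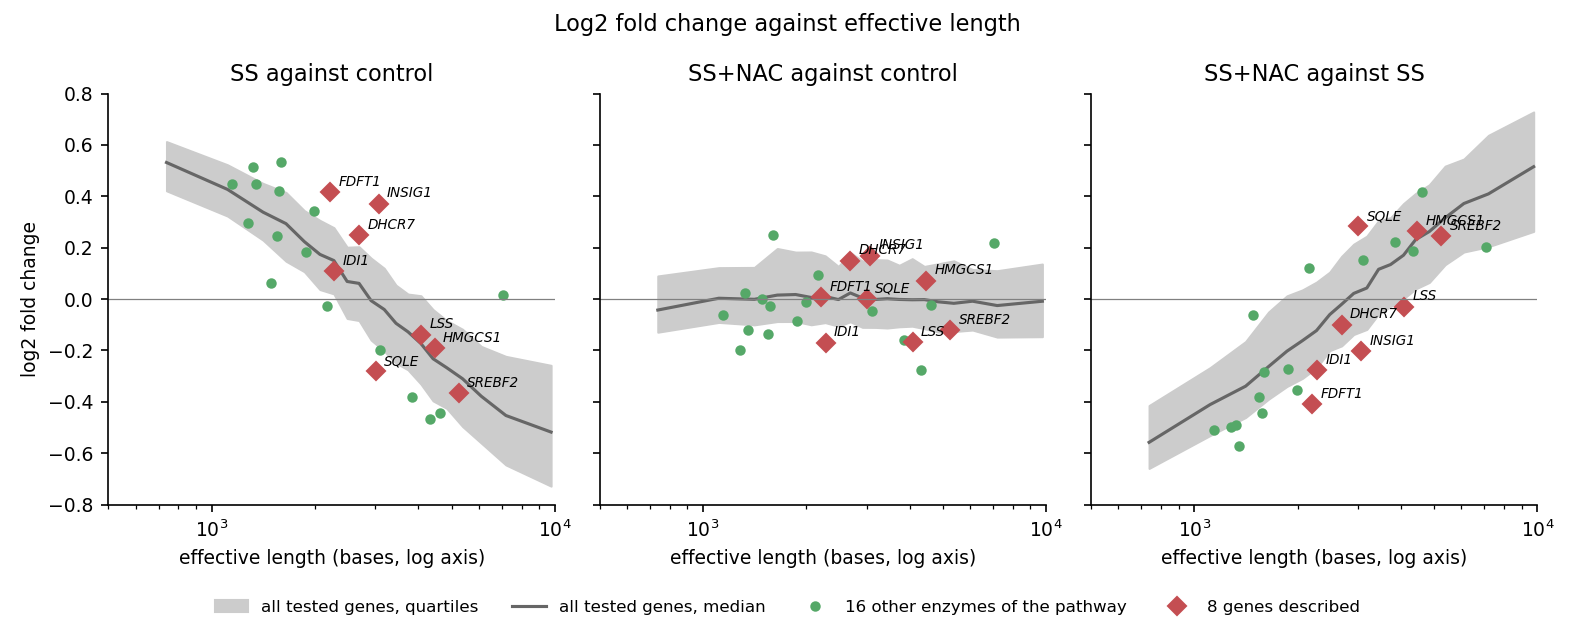
Log2 fold change (y axis) against effective length in bases (x axis, log scale) in the 3 comparisons; the line and band are the median and quartiles of all tested genes in 20 bins of length, diamonds are the 8 genes and dots the other 16 enzymes of the pathway. In SS against control short transcripts lie above 0 and long transcripts below, with rho of -0.68 across all genes, and FDFT1, INSIG1 and DHCR7 lie above the band while SQLE lies below it.

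Removal of this trend by an offset for each library left 1292 genes called in SS against control (9.23% of those tested), and none of the 8 genes was among them. At an unadjusted p under 0.05 there were 4 of 8 with the offset, and DESeq2 without the offset called 5 of 8. The differences of FDFT1, INSIG1, DHCR7 and SQLE had the same sign as without the offset, from 0.40 ± 0.14 for INSIG1 to -0.26 ± 0.08 for SQLE, and those of SREBF2, HMGCS1, IDI1 and LSS lay between -0.06 and 0.05. The median of the 8 genes was then 0.04.

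SS+NAC against control asks what remains of the response when an antioxidant is present, together with any effect of NAC itself. No difference in the 8 genes passed the test in this comparison. Their log2 fold changes ran from -0.17 for IDI1 to 0.17 for INSIG1, and the smallest adjusted p was 0.372. By edgeR 0 of 8 genes were called, 0 of 8 had an unadjusted p under 0.05, and DESeq2 called 0 of 8. The background was 2.01% of all genes (282), so this count says little about the 8 genes. FDFT1 differed by 0.01 with a 95% interval from -0.19 to 0.20, and SQLE by 0.00 with an interval from -0.18 to 0.18. DHCR7 at 0.15 had an interval from -0.05 to 0.35, and SREBF2 at -0.12 from -0.32 to 0.08. The DHCR7 interval holds its difference of 0.25 in SS against control. Those of FDFT1, SQLE and SREBF2 do not reach the SS differences of 0.42, -0.28 and -0.36, which carry errors of their own. With the length offset these SS differences were 0.28, -0.26 and -0.06. The last lies within the SREBF2 interval, which was taken without the offset. The libraries of 7 genes overlapped between these groups, with IDI1 the exception at 41.0 and 47.9 CPM in SS+NAC against 51.0 and 49.1 in control. Among all genes 47.6% did not overlap. With the length offset 282 genes were again called (2.01%) and 0 of the 8, also at an unadjusted p under 0.05.

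SS+NAC against SS asks what the antioxidant changes in selenite-treated cells. FDFT1 and IDI1 were lower with NAC, HMGCS1 and SQLE were higher, and 4 genes did not pass. The count of 4 of 8 stands beside 42.7% of all genes (5985), and again it is close to the background. In direction, 2 of 8 were higher against 23.1% of all genes and 2 lower against 19.6%. The median of the 8 genes was -0.06 and that of all genes 0.03. The libraries of 5 genes did not overlap, against 70.4% of all genes.

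FDFT1 fell by 0.41 ± 0.09 with NAC, from 115 and 130 CPM in SS to 91.2 and 92.6, which is the range of control (adjusted p = 0.00390). In TPM the libraries of these groups overlapped, with means of 91.1 ± 2.53 TPM in SS and 85.2 ± 5.80 in SS+NAC, but TPM holds the shift in SS given above. FDFT1 was the single gene of the 8 still called with the length offset, at -0.29 ± 0.08 (adjusted p = 0.0371), where 14.5% of all genes were called (2026). Without SS replicate 2 the adjusted p was 0.0504. SQLE rose by 0.28 ± 0.08 (adjusted p = 0.0170) and with the offset differed by 0.25 ± 0.08 (0.0594). Its call was lost without control replicate 2 (adjusted p = 0.0508), SS replicate 2 (0.109) or SS+NAC replicate 2 (0.0927). FDFT1 and SQLE, consecutive enzymes that make and oxidise squalene, thus differed in opposite directions. SS+NAC against SS rests on the same SS libraries as SS against control and is no repeat of it.

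IDI1 fell by 0.28 ± 0.09 with NAC (adjusted p = 0.0267), from 55.3 and 52.5 to 41.0 and 47.9 CPM. In TPM, with its shift in SS, the means were alike, at 40.4 ± 4.91 and 40.2 ± 6.63 TPM. The call was lost without SS replicate 1 (adjusted p = 0.130), SS replicate 2 (0.0717) or SS+NAC replicate 1 (-0.17, adjusted p = 0.140) and with the length offset (-0.18, adjusted p = 0.209). HMGCS1 rose by 0.26 ± 0.09 (adjusted p = 0.0322), a call that held in 1 of 6 fits that leave out a library. Its adjusted p was 0.0594 and 0.0900 without control replicate 1 or 2, 0.0825 and 0.154 without SS replicate 1 or 2, and 0.101 without SS+NAC replicate 2. With the length offset it was 0.04 (adjusted p = 0.781), and DESeq2 did not call it. SREBF2 at 0.24 ± 0.09 missed the limit (adjusted p = 0.0552), passed it without SS+NAC replicate 2 (0.37, adjusted p = 0.00331), was 0.11 without SS+NAC replicate 1, and was -0.05 with the length offset. INSIG1 at -0.20 ± 0.13 (adjusted p = 0.254) passed without SS+NAC replicate 2 as well (-0.39, adjusted p = 0.0187). It was -0.38 without SS replicate 2, 0.0058 without SS replicate 1 and -0.039 without SS+NAC replicate 1. DHCR7 at -0.10 and LSS at -0.03 did not pass. DHCR7 was -0.20 and -0.0040 without SS+NAC replicate 1 or 2. LSS was -0.055 without control replicate 2, -0.11 and 0.060 without SS replicate 1 or 2, and -0.14 and 0.073 without SS+NAC replicate 1 or 2.

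**Figure D4:**
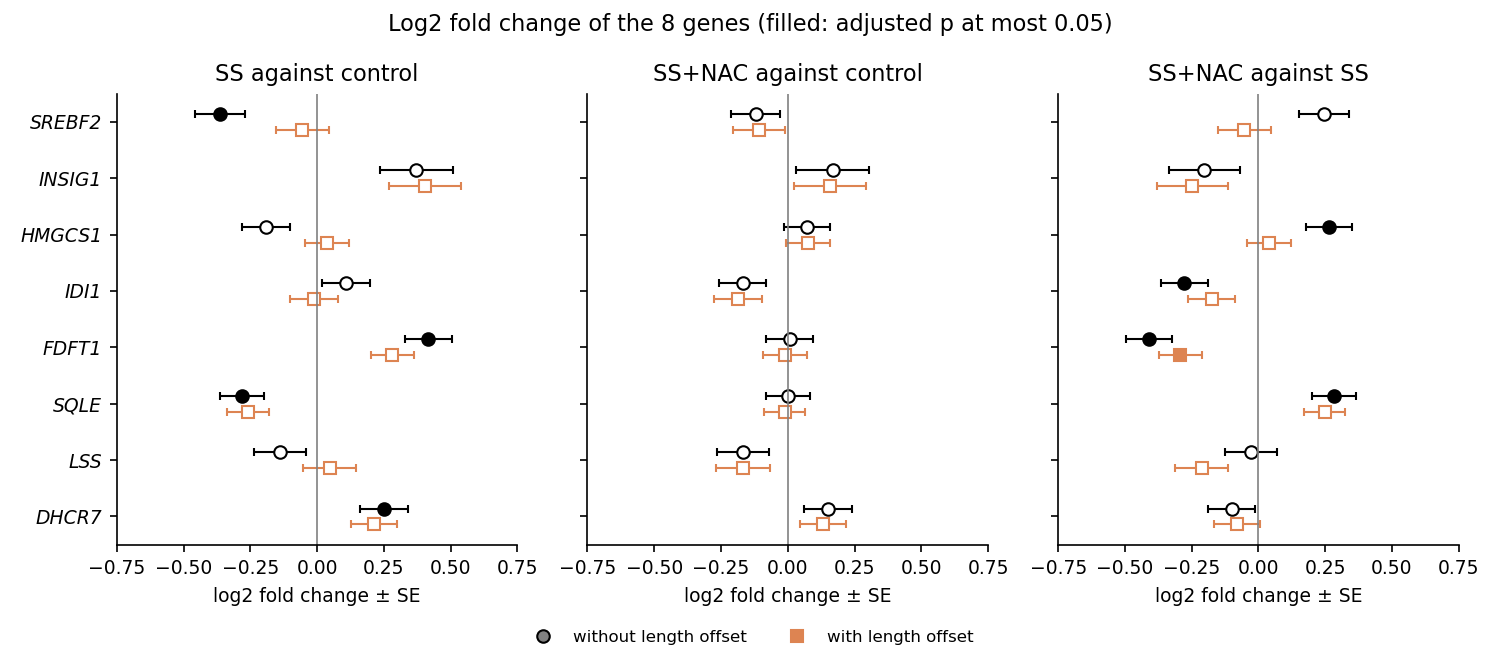
Log2 fold change ± SE (x axis) of the 8 genes in the 3 comparisons, without (circles) and with (squares) the length offset; filled symbols mark an adjusted p of at most 0.05. In SS against control 4 genes are called without and 0 with the offset, in SS+NAC against control 0 and 0, and in SS+NAC against SS 4 and 1.

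The other genes of the pathway are given by list, beside 40.0% of all genes called in SS against control and 42.7% in SS+NAC against SS. With the offset these shares of all genes were 9.23% and 14.5%, for each list below. Of the 7 other enzymes of the mevalonate and early isoprenoid steps, 3 were higher and 1 lower in SS than in control, among them FDPS, which makes farnesyl diphosphate (0.51 ± 0.08, adjusted p = 0.00114), and MVK, the mevalonate kinase (0.34 ± 0.11, adjusted p = 0.0314). FDPS was called in all 6 fits that leave out a library, and MVK was not without control replicate 1 (adjusted p = 0.138), control replicate 2 (0.0739) or SS replicate 2 (0.222). With the offset edgeR called 0 of 7, with 2 at an unadjusted p under 0.05 (DESeq2 without the offset called 3), and FDPS differed by 0.16 (adjusted p = 0.178). With NAC against SS 5 of 7 were lower and 1 higher, among them PMVK, the next kinase (-0.50 ± 0.11), FDPS (-0.49 ± 0.08) and IDI2, a paralog of IDI1 (-0.57 ± 0.19). Of these, DESeq2 called PMVK and FDPS but not IDI2. The call of IDI2 was lost without SS replicate 1 (adjusted p = 0.0645), SS replicate 2 (0.149), SS+NAC replicate 1 (0.114) or SS+NAC replicate 2 (0.0526). With the offset edgeR called 0 of 7, with 1 at an unadjusted p under 0.05, while DESeq2 without the offset called 5.

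Of the 9 other sterol enzymes after squalene, 3 were higher and 2 lower in SS than in control. TM7SF2, a sterol C14 reductase, rose by 0.53 ± 0.12 (adjusted p = 0.00499) and EBP, a sterol isomerase, by 0.45 ± 0.12 (0.0118, and 0.115 without SS replicate 2). The single gene of this list called with the offset was SC5D, a sterol desaturase with the longest transcript of the pathway, at 0.45 ± 0.11 (adjusted p = 0.0278), while its value without the offset was 0.02 (0.927). SC5D was named after its value was seen. Comparing SS+NAC with SS, 2 of 9 were lower and 1 higher. They were EBP (-0.51 ± 0.12), NSDHL of the demethylation complex (-0.45 ± 0.09) and LBR, the other C14 reductase (0.22 ± 0.08). Of these, DESeq2 called EBP and NSDHL but not LBR. EBP was not called without SS replicate 2 (adjusted p = 0.0660). LBR was not called without control replicate 1 (0.0850), control replicate 2 (0.123), SS replicate 1 (0.0722), SS replicate 2 (0.196) or SS+NAC replicate 2 (0.193). With the offset edgeR called 0 of 9, with 1 at an unadjusted p under 0.05, while DESeq2 without the offset called 2.

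Over all 22 tested enzymes, those of the 8 genes included, 8 were higher in SS than in control, with lengths from 1142 to 2689 bases, and 4 were lower, with lengths from 3003 to 4622 bases. No enzyme was called higher above, or lower below, this gap in length. With NAC against SS the 9 lower enzymes had 1142 to 2278 bases and the 4 higher 3003 to 4622 bases. With the offset 1 of 22 was called in each of these comparisons. Between SS+NAC and control 0 of 22 were called by edgeR, 1 had an unadjusted p under 0.05 and DESeq2 called 1.

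Of the 15 other genes of SREBP processing and sterol sensing, 7 were lower and 1 higher in SS than in control, with a median of -0.24, beside 21.4% lower and 18.6% higher among all genes. MBTPS2, the site-2 protease that releases SREBP from the membrane, fell by 0.77 ± 0.17 (adjusted p = 0.00477), from 7.11 and 6.56 CPM in control to 4.49 and 3.52 in SS. PAQR3, a Golgi protein that tethers SCAP, fell by 0.50 ± 0.12 (adjusted p = 0.00670), though not without control replicate 1 (0.0521) or SS replicate 2 (0.0630). NFYC, a subunit of NF-Y, rose by 0.32 ± 0.08 (adjusted p = 0.00830), though not without control replicate 1 (0.113) or SS replicate 2 (0.07). With the offset the median was -0.06 and 0 of 15 were called by edgeR (5 at an unadjusted p under 0.05, and 7 by DESeq2 without the offset), and MBTPS2 differed by -0.53 ± 0.16 (adjusted p = 0.0697). With NAC against SS 6 of 15 were called, each higher. MBTPS2 rose by 0.99 ± 0.16 to 7.49 and 8.47 CPM (adjusted p = 0.000989) and PAQR3 by 0.57 ± 0.12 (0.00309), and both were called with the offset and without any single library. ERLIN2, which acts in sterol-controlled protein degradation, rose by 0.29 ± 0.08 (adjusted p = 0.0150), but DESeq2 did not call it. ERLIN2 was not called with the offset (0.04) or without SS replicate 1 (adjusted p = 0.0512), SS replicate 2 (0.0890) or SS+NAC replicate 2 (0.0851).

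Genes of lipoprotein uptake, sterol trafficking and efflux include VLDLR and ABCA1, the genes named here that differed between SS+NAC and control. VLDLR, a lipoprotein receptor, had 6.78 and 6.42 CPM in control, 5.01 and 4.52 in SS, and 11.8 ± 0.260 in SS+NAC. ABCA1, the exporter of cholesterol to apolipoproteins, had 20.6 ± 1.23 CPM in control, 15.9 ± 2.5 in SS, and 35.2 ± 5.21 in SS+NAC. For both genes the SS+NAC libraries were above all others. The part of NAC itself in this was not tested, since no group received NAC alone. Against control, VLDLR rose by 0.84 ± 0.13 (adjusted p = 0.00756) and ABCA1 by 0.78 ± 0.13 (0.0124) in SS+NAC. They were the only genes called in that comparison among the 7 other lists, by edgeR's test without the offset, and with the offset they stood at 0.85 (adjusted p = 0.00659) and 0.80 (0.00739). Without control replicate 2 the calls were lost (adjusted p = 0.0786 for VLDLR and 0.0768 for ABCA1). Against SS, VLDLR rose by 1.31 ± 0.13 (2.48-fold, adjusted p = 0.000164) and ABCA1 by 1.15 ± 0.13 (2.22-fold, adjusted p = 0.000258), and both kept the call with the offset, at 1.08 and 0.62.

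In SS against control 1 of the 13 tested uptake and trafficking genes was higher and 4 lower, and with the offset 1 was called, higher. That gene was LRP1, an endocytic receptor with the longest transcript of the list, whose direction turned from -0.35 (adjusted p = 0.00554) to 0.28 with the offset (0.0363). NPC2, which carries cholesterol out of lysosomes, rose by 0.48 ± 0.07 (adjusted p = 0.000631) but differed by 0.02 with the offset. VLDLR fell by 0.47 ± 0.14 (adjusted p = 0.0221) and STARD4, a sterol carrier, by 0.39 ± 0.14 (0.0483), and neither was called with the offset. DESeq2 called STARD4 but not VLDLR. VLDLR was not called without control replicate 1 (adjusted p = 0.119), control replicate 2 (0.0890) or SS replicate 2 (0.121), nor STARD4 without control replicate 1 (0.302, where it was -0.24), SS replicate 1 (0.0812) or SS replicate 2 (0.220). Comparing SS+NAC with SS, 4 of 13 were higher and 1 lower, and with the offset 1 higher and 1 lower. LRP1 rose by 0.61 ± 0.08, but differed by -0.00 with the offset, and STARD4 rose by 0.50 ± 0.14, but not without SS replicate 2 (adjusted p = 0.106) or SS+NAC replicate 2 (0.0694, where it was 0.29), nor with the offset (0.30, 0.159). In the LXR and efflux list 1 of 7 tested genes was called in SS against control, higher, and with the offset edgeR called 0 of 7, 0 had an unadjusted p under 0.05, and DESeq2 without the offset called 1. With NAC against SS ABCA1 was higher and NR1H3, the sterol receptor LXR-alpha, lower (-0.44 ± 0.14). DESeq2 called ABCA1 but not NR1H3. NR1H3 lost its call with the offset and without SS replicate 1 (adjusted p = 0.143), SS replicate 2 (0.0516) or SS+NAC replicate 2 (0.0897).

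Fatty acid synthesis, driven mainly by SREBP1, had 8 of 14 genes lower and 1 higher in SS than in control, with a median of -0.22, beside 21.4% lower and 18.6% higher among all genes. GPAM, the first enzyme of glycerolipid synthesis, fell by 0.75 ± 0.10 (adjusted p = 0.000468) and SCD5, a stearoyl-CoA desaturase, by 0.69 ± 0.12 (0.00129). ACACA, the acetyl-CoA carboxylase, fell by 0.37 ± 0.08 (adjusted p = 0.00488), though not without control replicate 2 (0.0902), and stood at 0.17 with the offset. SCD5 kept its call with the offset (-0.80 ± 0.12, adjusted p = 0.00356), GPAM did not (-0.35, 0.0518), and 2 of 14 were called in all, 1 higher and 1 lower, with a median of 0.03. With NAC against SS 6 of 14 were higher and 1 lower, beside 23.1% higher and 19.6% lower among all genes. With the offset 4 of 14 were higher and 3 lower, beside 14.5% of all genes called (2026). GPAM (0.78 ± 0.10), SCD5 (0.69 ± 0.11) and ME1, the cytosolic malic enzyme that supplies NADPH (0.50 ± 0.11), rose and were called with the offset and without any single library. Between SS+NAC and control 0 of 14 were called by edgeR, 2 had an unadjusted p under 0.05 and DESeq2 called 1.

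In the branch that uses isoprenoids for other products, 3 of 15 genes were higher and 3 lower in SS than in control. FNTB, a subunit of farnesyltransferase, fell by 0.69 ± 0.17 (adjusted p = 0.00799), ZMPSTE24, a protease of prenylated proteins, by 0.40 ± 0.08 (0.00369), and NUS1, a subunit of the enzyme that makes dolichol, by 0.39 ± 0.09 (0.00480). With the offset FNTB (-0.69, adjusted p = 0.0292) and ZMPSTE24 (-0.35, 0.0242) were called and NUS1 was not. FNTB was not called without control replicate 2 (-0.37, adjusted p = 0.135) or SS replicate 1 (0.0524), nor NUS1 without control replicate 1 (0.0600) or SS replicate 2 (0.0565). With NAC against SS 4 of 15 were higher and 2 lower, with FNTB at 0.54 ± 0.16, PGGT1B, a subunit of a prenyltransferase, at 0.45 ± 0.11 and NUS1 at 0.34 ± 0.09. With the offset FNTB hardly moved, at 0.53 (adjusted p = 0.0583), PGGT1B was 0.32 (0.0680) and NUS1 was 0.07 (0.546), so that these calls were lost. The offset called 2 of 15, 1 higher and 1 lower, which were RABGGTB (0.37, adjusted p = 0.0199) and ICMT (-0.31, adjusted p = 0.0203). Neither was called without the offset, and both were named after their values were seen. FNTB was not called without SS replicate 1 (0.119) or SS replicate 2 (0.0640), PGGT1B without SS replicate 1 (0.0523), or NUS1 without SS replicate 2 (0.102). For SS+NAC against control 0 of 15 were called by edgeR, as in the SREBP processing list, 2 had an unadjusted p under 0.05 in each list, and DESeq2 called 0.

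**Figure D5:**
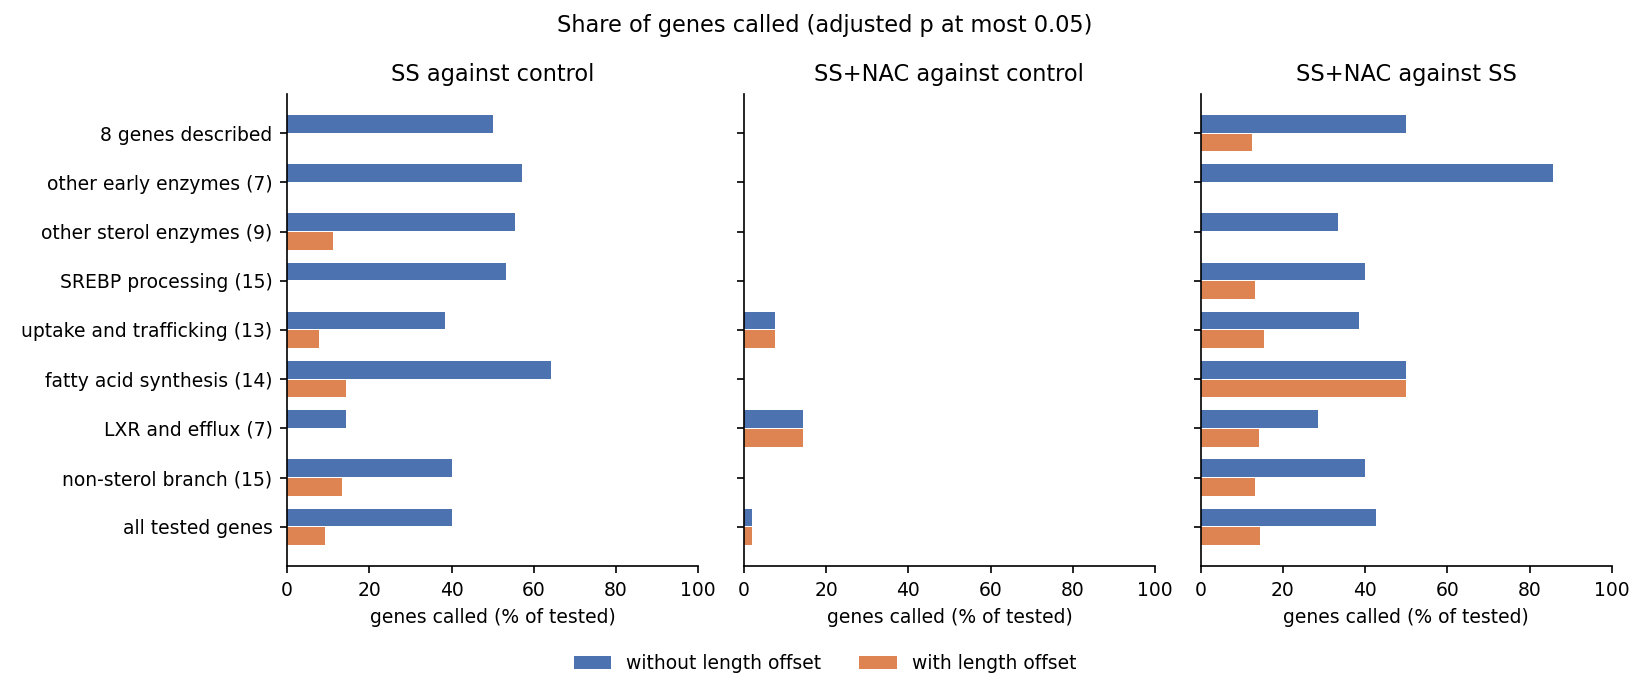
Share of tested genes called (x axis, percent) in the 8 genes, the 7 other lists (number tested in brackets) and all tested genes, in the 3 comparisons, without (blue) and with (orange) the length offset. In SS against control 50.0% of the 8 genes and 40.0% of all genes are called without the offset, and 0% and 9.23% with it.

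The 8 genes varied in both directions over the 6 libraries, which fall into 3 groups. As a description, Pearson's r between pairs of the 8 genes ran from -0.935 for HMGCS1 and FDFT1 to 0.911 for HMGCS1 and SQLE. The mean of their centred log2 CPM spanned -0.03 to 0.03, since genes that moved in opposite directions offset each other. Among 9444 other genes, those most like this mean profile over the 6 libraries were MAX (Pearson's r = 0.924), ACO1 (0.922), DCAKD (0.914), TPRG1L (0.8998) and SNX12 (0.866), and the r of the 8 genes with it ran from -0.625 for HMGCS1 to 0.631 for FDFT1. This likeness is to a profile that hardly varied.

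Some counts carry an uncertainty of assignment. Reads shared with other genes gave fractional counts for HMGCS1, IDI1 and FDFT1 in all 6 libraries and for SREBF2 in 1. In GENCODE release 29, exons of genes on the opposite strand overlap 703 exonic bases of HMGCS1, 643 of IDI1, 217 of FDFT1, 570 of LSS and 280 of SREBF2. Whether the counting used strand is not given in the sources used here, and without strand such reads cannot be told apart. SQLE, INSIG1 and DHCR7 had whole counts and no such overlap.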

How the data were processed

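The 6 RNA-seq libraries were grouped by the treatment in their labels. The authors purified RNA on oligo(dT) beads, mapped single-end reads with HISAT2 2.0.4 and estimated levels with RSEM 1.2.12; Bowtie2 2.2.5 is also listed in the submitters' processing notes. The deposited table holds the expected counts of RSEM, of which 48.5% of those above 0 were not whole. The TPM and FPKM values in the deposited table were made by the authors with RSEM. The authors' 9 columns of group means and 9 columns of comparisons between groups (fold changes and p-values) were not used.

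Counts were rounded, filtered with filterByExpr, scaled with TMM (factors 0.920 to 1.06) and fitted over all 6 libraries with edgeR 4.0.16 (R 4.3.3). Groups were compared by the quasi-likelihood test with Benjamini-Hochberg adjustment over 14005 genes at 0.05. The biological coefficient of variation was 6.74%. The 8 genes had 418 to 2840 counts per library. Replicates differed by more than counting error (chi-square per degree of freedom 3.10 to 12.2). The length offset is a lowess fit (span 0.3), for each library, of the deviation of log2 CPM from the gene's mean on the log of effective length, which was derived from counts and FPKM. CPM on the log2 scale used a prior count of 2. Named genes are the 8 genes and, from each other list and comparison, up to 3 called genes with at least 1 CPM in a group by size of change; like genes had at least 10 CPM. The fit was tested on simulated data. Gene positions came from GENCODE release 29. Alternatives were DESeq2 1.42.0 (size factors, or the Wald test), other filters, fewer libraries, a replicate block, the length offset and Bonferroni adjustment. Tables and plots used Python 3.11.15, pandas 2.3.3, numpy 2.4.6 and matplotlib 3.10.9. The members and lists were chosen with earlier results of these data known. Results for some genes are not reported here.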

Additional observations from a re-analysis of the deposited data

How the results depend on the processing

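The 8 genes had 418 to 2840 counts per library, so small differences rest on the spread between 2 libraries per group. Where a library is left out, the lone sample of its group is assumed to vary like the other groups. The cause of each change below was not tested, apart from the fewer samples of the fits that leave out a library. Of the counts and medians, 98 were little changed over the alternatives and 34 moved. Of the log2 fold changes of single genes, 257 kept their direction and side of the limit, 9 came to pass it, 42 no longer passed it and 28 changed sign.

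With the length offset 0 of the 8 genes were called in SS against control by edgeR, with a median of 0.042, and 1292 of all genes (unadjusted p under 0.05 for 4 of 8; DESeq2 without the offset called 5). In SS+NAC against SS it called 1 of 8, with a median of -0.13, and 2026 of all genes. Signs changed with it for HMGCS1 (0.037), IDI1 (-0.011) and LSS (0.047) in SS against control, for SQLE (-0.012) and FDFT1 (-0.010) in SS+NAC against control, and for SREBF2 (-0.053) in SS+NAC against SS.

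A replicate block alone left 3, 0 and 3 of the 8 genes called in the 3 comparisons. With it DHCR7 was not called in SS against control (adjusted p = 0.0839), nor HMGCS1 in SS+NAC against SS (0.0691). It also ended the calls of STARD4 in SS against control (0.0558) and of IDI2 (0.0527) and LBR (0.0900) in SS+NAC against SS. The replicates share only a number, with pairing correlations of 0.113, -0.105 and -0.175. The block with the length offset gave 0 of 8, a median of 0.042 and 846 of all genes in SS against control, and 0 of 8, a median of -0.13 and 1342 of all genes in SS+NAC against SS. It put HMGCS1 at 0.036, IDI1 at -0.011 and LSS at 0.047 in SS against control, SQLE at -0.013 and FDFT1 at -0.0069 in SS+NAC against control, and SREBF2 at -0.054 in SS+NAC against SS.

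Bonferroni adjustment left 0, 0 and 0 of the 8 genes, and 220, 40 and 191 of all genes. With DESeq2 size factors SQLE was -0.017 and FDFT1 -0.011 in SS+NAC against control, with the DESeq2 Wald test -0.017 and -0.010, and without a filter SQLE was -0.0012.

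Leaving out a library gave 1 (without control replicate 1) to 5 of 8 genes in SS against control, medians of -0.018 to 0.041, and 3118 (without control replicate 1) to 6579 of all genes. In SS+NAC against control it gave medians of -0.047 to 0.031 and 98 (without control replicate 1) to 1086 (without SS+NAC replicate 1) of all genes, and values of -0.091 to 0.085 for SQLE, -0.017 to 0.33 for INSIG1, -0.078 to 0.10 for FDFT1 and -0.26 to 0.0019 for SREBF2. In SS+NAC against SS it gave 0 (without SS replicate 2) to 4 of 8 genes, medians of -0.090 to 0.035, 3250 (without SS replicate 2) to 6339 of all genes, and values of -0.39 to 0.0058 for INSIG1 and -0.14 to 0.073 for LSS.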
